A study of Bos taurus with 6 samples.

Results

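KRT7, KRT8, KRT18 and KRT19 are the keratins of simple, single-layered epithelia. They were taken as the rows whose gene name in the deposited tables is one of these 4 symbols, out of 13185 symbols with a usable value in all 6 libraries. They were chosen by their FPKM values in these same embryos, with their covariation and their spread within groups in view, so levels, spread and covariation are given as description, with no test. The difference between treatment groups is not part of that rule and was tested over all genes. All 4 symbols had a value in every library and all 4 passed the filter for testing, which asks for 1 FPKM or more in at least 3 libraries and left 7319 genes.

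Each library came from 1 bovine morula made by in vitro fertilization and kept in mSOF medium with bovine serum albumin at 5% oxygen until day 6. From 72 h after insemination (day 3, 8 to 16 cells) to 144 h, 3 control embryos were held in 0.1% DMSO, the solvent, and 3 MAT2A-inhibited embryos in 20 µM FIDAS-5. FIDAS-5 blocks MAT2A, the enzyme that makes S-adenosylmethionine. Whether the inhibited embryos also had DMSO is not stated in the labels. Nothing in them tells whether the embryos of a group shared a culture drop or a fertilization, and a p-value then covers only the spread among these 6 embryos. Values are FPKM, fragments scaled by transcript length and library size, so levels can be compared between genes.

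Keratins are intermediate filament proteins that assemble only as partners, one type II chain (here KRT8 or KRT7) with one type I chain (here KRT18 or KRT19). KRT8 and KRT18 form the standard pair of simple epithelia and are among the first filament proteins that a mammalian embryo makes. They are known from the trophectoderm, the outer epithelium that later forms the placenta, where KRT7 and KRT19 join them. A morula is the stage just before that epithelium seals.

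The libraries held 46500000 to 59900000 fragments each, to 3 digits, as recovered from the steps in the deposited confidence bounds. The listed morula markers were present: POU5F1 ran from 254.8 to 431.0 FPKM, DPPA3 from 453.5 to 881.3 and SOX2 from 27.6 to 50.8. NANOG was at 1.16 to 20.3 FPKM. SOX2 was higher in every inhibited embryo than in every control, as were 8.27% of tested genes. DPPA3 and NANOG were lower in every inhibited embryo than in every control, as were 5.18% of tested genes. None of the 5 listed markers passed the test over all genes. CDH1, the adhesion protein of compaction, was listed at 0 in MAT2A-inhibited morula 1 and at 49.1 to 323.4 FPKM in the other 5. The deposited status of that CDH1 value was OK. Whether the exact 0 is a failed estimate was not tested. A whole embryo mixes outer and inner cells, so fewer cells with keratin and less keratin RNA per cell cannot be told apart.

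KRT8 and KRT18 lie side by side. On bosTau8 chromosome 5 the KRT18 row spans 27171925 to 27175575 and the KRT8 row 27213669 to 27221171 at its shortest, 38.1 kb apart. KRT7 lies 607.8 kb further on, at 27828981 to 27842880 at its shortest, and KRT19 on chromosome 19 at 42366660 to 42370493. In the RefSeq gene table of the later assembly ARS-UCD2.0, which was used only for gene order, KRT18 and KRT8 are neighbours, KRT80 follows KRT7, and KRT19 sits between KRT15 and KRT9. The rows of KRT7, KRT8 and KRT19 overlapped no other row in any library. The KRT18 row lay inside 1 unannotated locus, of 4.67 FPKM, in control 3.

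KRT8, the main type II chain of simple epithelium, was at 81.4, 4.49 and 400.5 FPKM in controls 1 to 3. The inhibited embryos 1 to 3 had 38.7, 109 and 229.9 FPKM. Control 3 was the highest and control 2 the lowest of all 6. The controls alone thus spanned the whole range, 89.1-fold, and the inhibited embryos lay inside it with a 5.95-fold range. The control 3 value rests on a chromosome 5 row of 393.5 FPKM, above its own bounds of 337.2 to 347.3. Even the lower bound exceeds the KRT8 value of every other embryo, but the size of the range is less certain. By level, KRT8 ranked 419 of 13185 symbols in control 3 and 5074 in control 2.

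The KRT8 symbol covers 2 rows in each library. Beside the row on chromosome 5 there is a shorter one on chromosome 10, at 73627766 to 73629541, a span of 1776 bases against 7503 or more for the other. Taking 1776 bases as the transcript's whole length turned 11 of its 12 deposited bounds into whole fragment numbers (within 0.05), as for a locus without introns. For the chromosome 5 row of KRT8 the same step gave 2 of 12. Short intronless copies of KRT8 are common in mammalian genomes, and the ARS-UCD2.0 table holds the KRT8 symbol only on chromosome 5.

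The chromosome 10 row was at 1.74, 0.110 and 6.96 FPKM in the control embryos against 0.554, 1.83 and 2.06 FPKM in the inhibited ones. Its bounds in control 2 stand for 4 and 16 fragments. The order of the 6 embryos was the same as on chromosome 5. The row held 2.18%, 2.51% and 1.77% of the chromosome 5 value in controls and 1.45%, 1.70% and 0.903% in the inhibited embryos. By deposited FPKM the groups did not overlap for this share, which was picked after its values were seen and so has no test. The nearest shares, in control 3 and MAT2A-inhibited morula 2, both rest on a chromosome 5 FPKM above its own bounds. These were 393.5 FPKM against 337.2 to 347.3 in control 3, and 107.6 against 88.5 to 95.3 in MAT2A-inhibited morula 2. The separation is therefore not firm. Reads from the gene and from the copy cannot be told apart in these tables. The values of KRT8 in the text sum both rows, and with the chromosome 5 row alone its range over the 6 embryos was 89.8-fold.

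KRT7, a type II chain of ducts, glands and trophoblast, was far lower, at 3.38, 4.63 and 8.30 FPKM in the control embryos against 18.6, 10.3 and 13.6 FPKM in the inhibited ones. By FPKM every inhibited embryo lay above every control. The nearest values, in control 3 and MAT2A-inhibited morula 2, both lay above their own bounds. Those bounds overlap, at 6.64 to 8.15 and 7.67 to 9.93 FPKM, with midpoints of 7.40 and 8.80. The range of KRT7 was 2.46-fold within controls and 1.81-fold within inhibited embryos. KRT8 exceeded KRT7 in 5 of the 6 embryos, by 2.07-fold in MAT2A-inhibited morula 1 to 48.2-fold in control 3. In control 2 the values were near each other, with a KRT8 to KRT7 ratio of 0.971.

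KRT18, the type I partner of KRT8, was at 22.6, 8.67 and 363 FPKM in the control embryos against 28.5, 90.4 and 117 FPKM in the inhibited ones. Control 3 was again highest and control 2 lowest, a 41.9-fold range within controls against 4.11-fold within the inhibited embryos. The KRT18 value of control 2 is loosely bounded in the deposited table, from 4.97 to 12.4 FPKM.

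KRT19, the smallest keratin chain and a type I protein of simple and ductal epithelium, stayed low in most embryos. It was at 2.65, 4.63 and 6.37 FPKM in the control embryos against 3.06, 3.58 and 21.3 FPKM in the inhibited ones. MAT2A-inhibited morula 3 stood apart, while the other 5 embryos lay within 2.65 to 6.37 FPKM. In the 4 libraries whose KRT19 row kept the annotation's name, a transcript length of 1389 bases turned all 8 bounds into whole fragments. The next best of the lengths from 800 to 2500 gave 3. At that length the bounds stand for 152 to 227 fragments in control 1, 407 to 514 in control 3, 170 to 248 in MAT2A-inhibited morula 1 and 173 to 252 in MAT2A-inhibited morula 2. The bounds of control 1 overlap those of both inhibited embryos, in fragments and in FPKM.

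**Figure D1:**
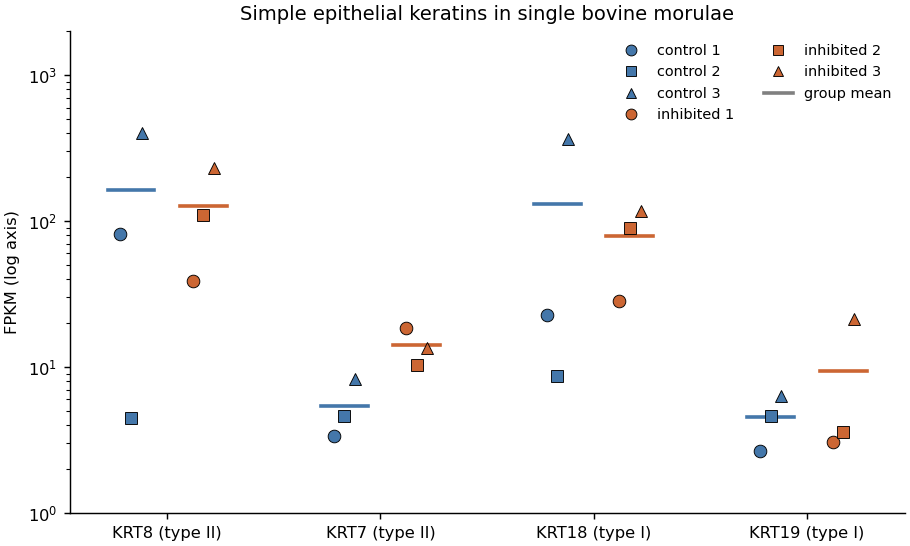
FPKM (log axis) of KRT8, KRT7, KRT18 and KRT19, 1 point per morula (controls blue, MAT2A-inhibited orange, shape by replicate), with a bar at each group's arithmetic mean. KRT8 and KRT18 spread from 4.49 to 400.5 and from 8.67 to 363 FPKM within the controls alone. The plotted KRT7 values do not overlap between groups, and KRT19 is high only in MAT2A-inhibited morula 3, at 21.3 FPKM.

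Since filaments take both types in equal amounts, type II and type I transcripts were set side by side. KRT7 and KRT8 together were at 84.8, 9.12 and 408.8 FPKM in the control embryos against 57.3, 119.8 and 243.5 FPKM in the inhibited ones. KRT18 and KRT19 together were at 25.3, 13.3 and 369.8 FPKM against 31.5, 94.0 and 138.4. Type II exceeded type I in 5 of 6 embryos, with ratios of 1.11 to 3.35. Control 2 was the exception by FPKM, at 0.685. Its KRT18 bounds run from 4.97 to 12.4 FPKM, so the order of the 2 types in that embryo is uncertain.

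The KRT8 to KRT18 ratio was 3.59, 0.518 and 1.10 in the control embryos against 1.36, 1.21 and 1.96 in the inhibited ones. It thus moved 6.94-fold over the 6 embryos by FPKM, against 89.1-fold for KRT8 itself. Both ends of the ratio rest on uncertain KRT18 values. In control 1 KRT18 was at 22.6 FPKM, above its own bounds of 18.3 to 20.8, and in control 2 its bounds run from 4.97 to 12.4. On the log2(FPKM + 1) scale the ratio differed between groups by 0.18 (inhibited minus control, exact two-sided permutation p = 0.8). The sign of that difference turned without control 2, at -0.41, and without MAT2A-inhibited morula 3, at -0.02.

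The make-up of the 4 transcripts differed between embryos. Their sums were 110.1, 22.4 and 778.6 FPKM in the control embryos against 88.8, 213.7 and 381.9 FPKM in the inhibited ones. In control 2, the lowest total, KRT8, KRT7 and KRT19 took near-equal parts of 20.0%, 20.6% and 20.7%, and KRT18 took 38.7%. In control 3, the highest, KRT8 and KRT18 took 51.4% and 46.7%, and KRT7 and KRT19 1.07% and 0.818%. MAT2A-inhibited morula 1 had the largest KRT7 part, 21.0%, and control 1 the largest KRT8 part, 73.9%.

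**Figure D2:**
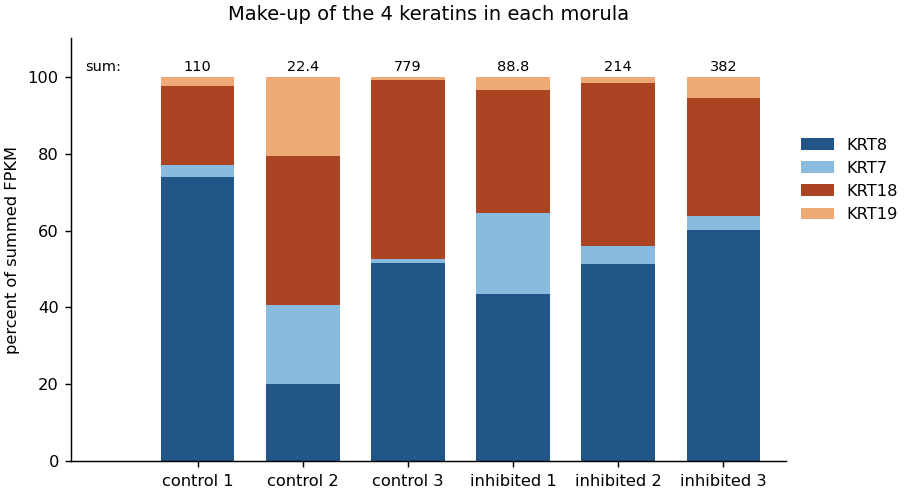
Stacked bars of KRT8, KRT7 (blues, type II), KRT18 and KRT19 (reds, type I) as percent of their summed FPKM in each morula, with the sum above each bar. KRT8 and KRT18 fill nearly the whole bar of control 3, while in control 2, where the sum is 22.4 FPKM, KRT8 makes up 20.0%.

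KRT8 and KRT18 moved together over the 6 embryos. On log2(FPKM + 1) their Pearson r was 0.92 and Spearman's rho 0.94 (n = 6 libraries). With each group's mean taken off r stayed at 0.92, and without controls 2 and 3, the embryos farthest from the median of KRT8, it was 0.81. Points of 1 embryo share a library and its scaling. KRT18 was not the gene closest to KRT8: by r with KRT8 it stood 130 of the 7318 other tested genes, and KRT8 stood 91 by r with KRT18.

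The other pairs were looser. KRT8 and KRT18 had an r of 0.41 and 0.46 with KRT19 (rho 0.54 and 0.60), and KRT7 had 0.31 with KRT8, 0.40 with KRT18 and 0.34 with KRT19 (rho 0.14, 0.43 and 0.26). Without the 2 embryos farthest from the median of the first-named gene these 5 values of r were between 0.62 and 0.82, over 4 embryos. Controls ran in the same order for KRT7 and KRT19, with control 3 highest and control 1 lowest, whereas control 2 was lowest for KRT8 and KRT18. Among inhibited embryos KRT8, KRT18 and KRT19 all rank morula 3 first and morula 1 last, and KRT7 ranks morula 1 first.

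**Figure D3:**
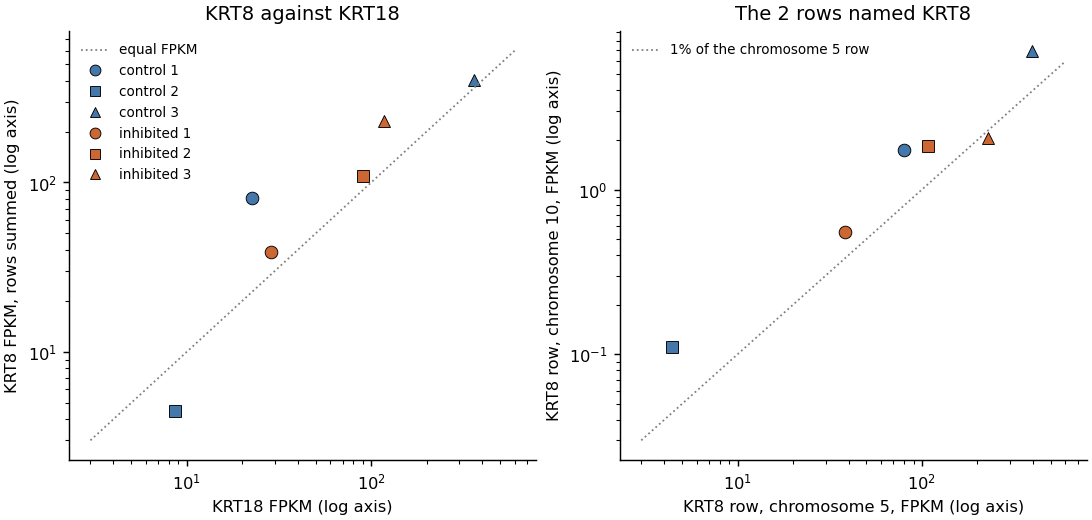
FPKM (log axes) in the 6 morulae, controls blue and MAT2A-inhibited orange: left, KRT8 against KRT18 with a dotted line of equal FPKM, and right, the KRT8 row on chromosome 10 against the one on chromosome 5 with a dotted line at 1% of the latter. Only control 2 lies below the line of equality on the left, and only MAT2A-inhibited morula 3, at 0.903%, below the line on the right.

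Within groups, KRT8 and KRT18 were among the most variable of the tested genes. The SD around the group means on log2(FPKM + 1) was 2.39 for KRT8 and 2.07 for KRT18, against a median of 0.40 over all tested genes. They ranked 23 and 46 of 7319, and 22 and 35 among the 4057 genes with a mean of 10 FPKM or more. KRT19 had an SD of 1.04, rank 477, and KRT7 0.48, rank 2783. In KRT8 and KRT18 the spread was wider in controls (SD 3.13 and 2.73) than in inhibited embryos (1.28 and 1.06), in KRT19 narrower (0.51 against 1.37). These differences in spread were not tested. The SD around the group means, taken over both groups, depended on single embryos. It was 1.40 for KRT8 without control 2, 1.02 for KRT18 without control 3, and 0.42 for KRT19 without MAT2A-inhibited morula 3.

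**Figure D4:**
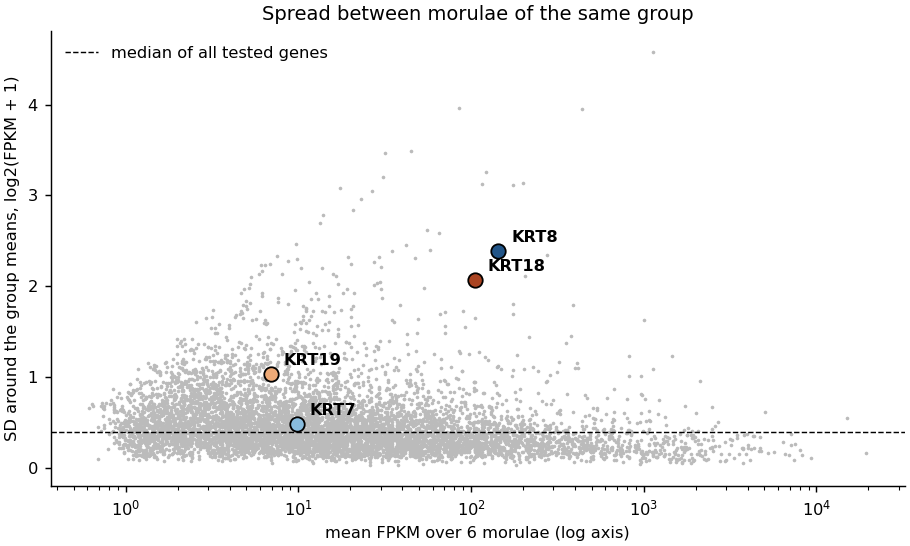
SD around the group means of log2(FPKM + 1) against mean FPKM over the 6 morulae (log axis) for the 7319 tested genes (grey) and the 4 keratins (coloured, named), with a dashed line at the median of 0.40. KRT8 and KRT18 sit near the top at 2.39 and 2.07, KRT19 at 1.04, and KRT7 near the median at 0.48.

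The comparison that the study was built on is inhibited against control. None of the 4 keratins passed limma over all tested genes (adjusted p threshold 0.05), where 0.041% of tested genes did. KRT7 had the largest difference, 1.27 ± 0.38 (SE) on the log2(FPKM + 1) scale, MAT2A-inhibited minus control, from 5.44 ± 2.56 to 14.2 ± 4.19 FPKM (SD, n = 3 each). Its limma p was 0.0105 unadjusted and 0.701 adjusted, and its exact two-sided permutation p was 0.1, the smallest that 3 embryos against 3 can give. An unadjusted p below 0.05 was found for 6.64% of tested genes. Of the 4 keratins KRT7 alone had all inhibited embryos above all controls by FPKM, as had 8.27% of tested genes. Another 5.18% lay the other way, none of the 4 keratins among them. The bounds of the nearest KRT7 values overlap, as given above.

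The other 3 keratins overlapped between groups. For KRT8 the means were 162 ± 209.97 FPKM in the control and 126.0 ± 96.7 FPKM in the inhibited group (SD, n = 3 each, exact permutation p = 0.9). Its log2 difference was 0.83 ± 1.43 (SE, limma adjusted p = 0.899), above 0 although the control mean in FPKM is the higher of both. KRT18 was at 132 ± 201 against 78.6 ± 45.4 FPKM (exact permutation p = 1), with a log2 difference of 0.64 ± 1.24 (limma adjusted p = 0.912). KRT19 was at 4.55 ± 1.86 against 9.33 ± 10.4 FPKM (exact permutation p = 0.8), with a log2 difference of 0.48 ± 0.67 (limma adjusted p = 0.876).

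For KRT8, KRT18 and KRT19 single embryos also set the sign. Without control 2 the differences of KRT8 and KRT18 were -0.86 and -0.44, and without control 3 they were 2.24 and 2.17. Without MAT2A-inhibited morula 3 the difference of KRT19 was -0.31. KRT7 stayed between 1.03 and 1.57 with any 1 library left out. All 4 differences over the 6 libraries were above 0, with a median of 0.73, where 54.2% of tested genes were above 0 with a median of 0.04.

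**Figure D5:**
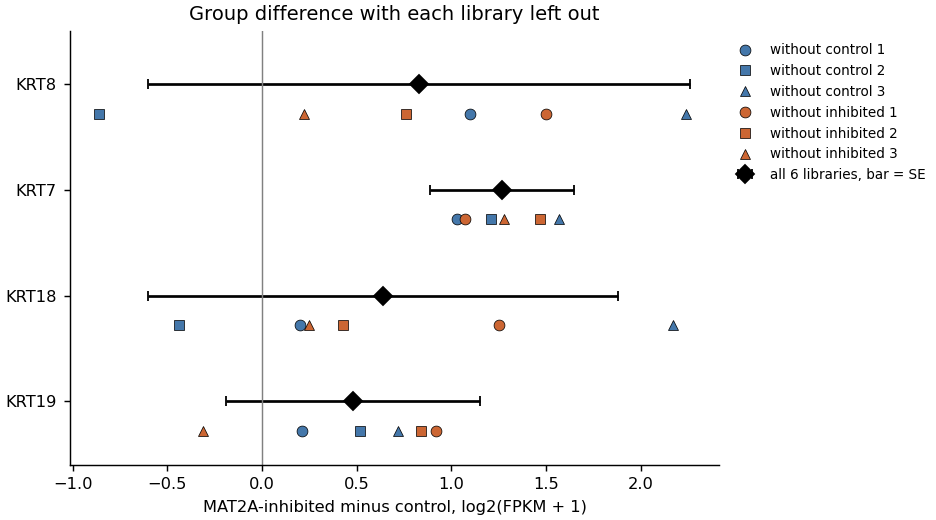
Difference between MAT2A-inhibited and control morulae on log2(FPKM + 1) for each keratin over all 6 libraries (black diamond, bar = SE) and, below it, with each library left out (coloured symbols). KRT7 stays right of 0, from 1.03 to 1.57, while KRT8 runs from -0.86 to 2.24 and KRT18 from -0.44 to 2.17.

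Of the other keratins 36 had a value in all libraries and 3 passed the filter, none of them passing limma. KRT10, a type I chain of the upper epidermis, was at 58.2, 37.1 and 21.7 FPKM in the control embryos against 6.99, 25.6 and 5.53 FPKM in the inhibited ones (log2 difference -1.74 ± 0.59, SE, limma adjusted p = 0.701). In 3 libraries the KRT10 value lay above its own bounds, at 1.75 to 2.23 times their midpoint. KRT5, a type II chain of basal epithelial cells, was at 39.9, 17.3 and 13.3 against 20.2, 11.6 and 30.9 FPKM (-0.11 ± 0.49, adjusted p = 0.963). KRT14, the usual partner of KRT5, stayed at or below 2.59 FPKM. In control 2, KRT5 and KRT10 were each above KRT8 and KRT18.

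KRT15, the neighbour of KRT19 and a type I chain of basal cells, was at 0.609, 2.56 and 0.328 FPKM in the control embryos against 1.74, 6.63 and 11.1 FPKM in the inhibited ones (1.68 ± 0.62, limma adjusted p = 0.746). It shared its highest embryo, MAT2A-inhibited morula 3, with KRT19, and over all 6 libraries r was 0.59 and rho 0.37 (r = 0.56 without control 3 and that embryo). KRT4 was listed at 0 in 4 libraries and at 5.45 and 9.25 FPKM in control 1 and MAT2A-inhibited morula 3, where its row was stretched from 6.9 to 115.9 kb over neighbouring keratin genes. That value cannot be given to KRT4 alone. KRT80, beside KRT7 on chromosome 5, reached 0.764 FPKM at most, KRT85 and KRT86 0.662 and 0.482, and KRT222, KRT25 and KRT24 reached 1.95, 0.936 and 1.07 FPKM. Of 18 other type I and 18 other type II symbols, 13 and 16 stayed below 1 FPKM in every library.

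Desmosomes anchor keratin filaments to cell junctions. Of 17 measured desmosome and plakin genes 10 were tested, none passed, and 6 had a difference above 0, with a median of 0.02 against 0.04 over all tested genes. PERP, a desmosomal membrane protein, was at 74.8 to 120.9 FPKM over the 6 embryos, and DSG2, the desmoglein of simple epithelium, at 19.2 to 59.0. The plaque proteins PKP2 and JUP (plakoglobin) were at 18.1 to 34.1 and 3.59 to 15.8 FPKM, and PKP4 at 1.61 to 8.30. For PERP, DSG2, PKP2 and JUP control 3 was the highest and control 2 the lowest embryo, as for KRT8 and KRT18. The other tested members of the list did not share both extremes. ITGA6 was lowest in control 3, at 1.84 FPKM, and COL17A1 highest in control 2, at 2.57. PKP4 had an r of 0.04 with KRT8 and 0.05 with KRT18. How many of all tested genes have these extremes was not counted. JUP had an r of 0.82 with KRT8 and 0.84 with KRT18, but 0.17 and 0.34 without controls 2 and 3, so the relation rests on those embryos.

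Proteins that bind keratins gave 7 tested genes of 9 measured, 0 passing, 3 above 0 and a median of -0.12. HSPB1, a small heat shock protein that associates with keratin filaments, was at 114.6, 101.8 and 502.2 FPKM in the control embryos against 278.0, 564.9 and 941.1 FPKM in the inhibited ones (1.55 ± 0.67, SE, limma adjusted p = 0.746). Like KRT8 and KRT18 it was highest in control 3 and lowest in control 2 among controls. YWHAZ, a 14-3-3 protein, was at 894.98, 611.8 and 750.2 against 291.9, 781.5 and 314.2 FPKM. DNAJB6, a co-chaperone that binds KRT18, was at 136.3 to 193.9 FPKM, CSNK1A1 at 94.3 to 148.5 and STUB1 at 55.7 to 78.6. STUB1 was the 1 tested gene of this list whose groups did not overlap, lower in inhibited embryos, as were 5.18% of all tested genes.

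Other intermediate filaments were mostly lamins and neuronal chains. Of 15 measured genes 7 were tested, 0 passed, 3 were above 0 and the median was -0.35. NEFL, a neurofilament chain, was at 20.1, 43.4 and 14.6 FPKM in the control embryos against 20.8, 10.9 and 11.02 FPKM in the inhibited ones. It was highest in control 2, where KRT8 was lowest. PRPH, another neuronal chain, was the 1 tested gene of these 7 whose groups did not overlap (5.18% of all tested genes lay this way), with 4.74 to 6.01 FPKM in the control embryos against 2.62 to 3.90 FPKM in the inhibited ones. The nuclear lamins LMNB1, LMNB2 and LMNA were at 5.05 to 15.1, 4.86 to 8.92 and 2.57 to 14.9 FPKM, and INA, a neuronal chain, at 3.77 to 7.67. VIM (vimentin), typical of mesenchyme, reached 0.501 FPKM in control 2.

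Regulators of trophectoderm were described next, as the tissue in which these keratins are known. Of 16 measured genes 10 were tested, 0 passed, 6 were above 0 and the median was 0.04. KLF5 was at 78.2 to 155.9 FPKM, TFAP2C at 76.1 to 104, WWTR1 at 32.5 to 64.6, ID2 at 23.0 to 55.0 and MSX2 at 21.7 to 49.1. CDX2, a homeobox factor of trophectoderm also named after its values were seen, was at 0.188 to 2.77 FPKM, lower than KRT8 in every embryo. GATA3, sixth by level and named after its values were seen, was at 13.7, 6.50 and 83.4 FPKM in the control embryos against 16.99, 15.5 and 33.9 FPKM in the inhibited ones. The order of controls was that of KRT18, and r was 0.94 with KRT18 and 0.88 with KRT8. Without controls 2 and 3 it was 0.70 and 0.71. The 5 more abundant regulators differed in sign: r with KRT8 and KRT18 was 0.80 and 0.70 for KLF5, 0.49 and 0.24 for MSX2, 0.26 and 0.49 for TFAP2C, -0.35 and -0.35 for ID2, and -0.42 and -0.47 for WWTR1.

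Surface and junction genes of epithelium showed the embryo order of the keratins in part. Of 20 measured genes 19 were tested, 0 passed, 13 were above 0 and the median was 0.34. Of these 19, CLDN3, OCLN and F11R had all inhibited embryos above all controls, a pattern that 8.27% of tested genes share with KRT7. F11R, a tight junction adhesion molecule, was at 68.8 to 113.3 FPKM in the control embryos against 125.1 to 139.3 FPKM in the inhibited ones (0.51 ± 0.24, SE, limma adjusted p = 0.750). EPCAM, an epithelial adhesion molecule, was at 99.1, 62.3 and 203.8 FPKM in the control embryos against 113.4, 162.6 and 153.6 FPKM in the inhibited ones. Its r was 0.97 with KRT18 and 0.94 with KRT8, and without controls 2 and 3 it was 0.97 and 0.65. EZR (ezrin), which ties the cell surface to actin, was at 129.6, 34.4 and 314.0 against 82.2, 60.0 and 133.0 FPKM, and CLDN6, a claudin, at 257.9 to 477.3 FPKM.

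The genes most like each keratin were taken from 1181 tested genes outside the 4 that spanned at least 2 log2 units over the 6 libraries, by Pearson r. With KRT8 they were IFI30 (0.981), GMPS (0.980), COMMD7 (0.978), KIT (0.966) and DNASE2 (0.965). With KRT18 they were CD9 (0.973), CIST1 (0.971), KIT (0.970), COQ2 (0.968) and ASRGL1 (0.968). KIT, a receptor tyrosine kinase, stood in both sets, at 4.62, 0.814 and 24.5 FPKM in the control embryos against 4.68, 13.2 and 18.6 FPKM in the inhibited ones. CD9, a membrane tetraspanin, was at 739, 429.5 and 1731 against 620.0, 940.3 and 1328 FPKM. Both were highest in control 3 and lowest in control 2.

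KRT19 was most like MYCBP2 (0.996), MUM1 (0.943), TNIP1 (0.937), REV3L (0.937) and AGA (0.927). MYCBP2, a ubiquitin ligase, was at 3.56, 5.08 and 7.47 FPKM in the control embryos against 3.42, 4.49 and 27.4 FPKM in the inhibited ones, so that it too was set by MAT2A-inhibited morula 3. KRT7 was most like SLC39A6 (0.983), HMCN1 (0.944), HERC5 (0.941), NQO1 (0.937) and DENND2D (0.934). SLC39A6, a zinc transporter, was listed at 0, 0 and 5.64 FPKM in the control embryos against 24.0, 6.10 and 12.7 FPKM in the inhibited ones. With 6 libraries high values are frequent: the hundredth gene still had an r of 0.837 with KRT8, 0.798 with KRT18, 0.718 with KRT7 and 0.654 with KRT19.

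Markers of other cells were compared with the keratins because control 2 is lowest for KRT8 and KRT18. The 10 cumulus and granulosa markers summed to 7.86, 19.1 and 8.08 FPKM in the control embryos and to 3.64 to 5.11 FPKM in the inhibited ones. In control 2 DCN, a matrix protein, was at 11.002 FPKM and LUM at 4.81, against at most 0.730 and 0.739 elsewhere. The list did not move as one: COL1A2, a collagen chain and second by level, had 4.29, 0.231 and 4.06 FPKM in controls 1 to 3 and 0.529 to 1.06 FPKM in the inhibited embryos, so that control 2 was its lowest embryo. STAR, a steroidogenic protein, was at 1.16 to 2.19 FPKM (1.20 in control 2), and TNFAIP6 at 0 to 1.42 (0.424 in control 2). Of the genes typical of expanding cumulus, HAS2 reached 0.0935 FPKM at most and PTX3 was listed at 0 in every library, the 1 of the 10 that was. The 3 mesenchymal markers with a value stayed below 1 FPKM, COL6A1 reaching 0.621 in control 1 and VIM 0.501 in control 2, with COL3A1 at 0 throughout. Their part in the low keratin of control 2 was not tested. The 6 squamous markers with a value summed to 28.6 to 98.8 FPKM, mostly KRT5 and KRT10. DSG1, a desmoglein of stratified epithelium, was at 0.0364 to 2.69 FPKM, while IVL was at 0 in every library and LOR at most 0.0301. The sperm markers TNP1, TNP2 and PRM1 summed to 2.53 to 11.5 FPKM. Of the blood markers HBA was at 63.1 to 132.4 FPKM, HBB at most 1.72 and PTPRC at most 0.00464.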

How the data were processed

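RNA of 6 single bovine morulae, 3 control and 3 MAT2A-inhibited, was made into libraries with the SMART-Seq HT PLUS kit, per the labels. For each library the authors deposited FPKM per gene with lower and upper bounds, per the file headers. The submitters' processing notes name TopHat2 2.0.14, Cufflinks 2.2.1 and bosTau8, and the annotation is not given in the sources used here. Scaling between libraries is not recorded. Each library was assembled separately, so the extent of a row can differ between libraries. In 6 rows of the 4 keratins the FPKM lies outside its own bounds, at up to 1.17 times their midpoint.

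Rows of 1 symbol were summed. Symbols in a merged locus (38) or with a status other than OK (72) were left out of 13295. Depth was the value that made the upper bounds of unannotated loci of 100 to 300 bases whole fragments, within 0.05, for 99.9% or more of them. Positions are 1-based. Groups were compared on log2(FPKM + 1) over all 6 libraries with limma 3.58.1 (R 4.3.3), with a mean-variance trend, two-sided. Benjamini-Hochberg adjustment was over 7319 genes. The fit was also run on simulated independent normal values, which lack the exact zeros and single outlying embryos seen here. The log2(FPKM + 1) scale understates changes of low genes. Single values had an exact permutation test in SciPy 1.17.1. The members and lists were chosen with earlier results of these data known. Of each list the 5 genes with the highest mean are named, beside any that pass limma. Genes named beyond that were chosen after their values were seen. The closing section gives the alternatives tried.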

Additional observations from a re-analysis of the deposited data

How the results depend on the processing

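KRT7, KRT8, KRT18 and KRT19 passed limma under none of 16 alternatives each, with adjusted p from 0.499 for KRT7 upward. With all 6 libraries kept, the other choices (scaling, filter, pseudocount, variance trend, block, rows per symbol and the midpoint of the bounds) left every difference above 0: 1.22 to 1.42 for KRT7, 0.77 to 0.90 for KRT8, 0.57 to 0.71 for KRT18 and 0.43 to 0.52 for KRT19. With each library left out, the ranges were 1.03 to 1.57, -0.86 to 2.24, -0.44 to 2.17 and -0.31 to 0.92, and -0.41 to 0.89 for the KRT8 to KRT18 ratio. The r of KRT8 with KRT18 ran from 0.90 to 0.98 in this way, the mean r of the 6 pairs from 0.37 to 0.62, and the within-group SD from 0.36 to 0.56 (KRT7), 1.40 to 2.76 (KRT8), 1.02 to 2.37 (KRT18) and 0.42 to 1.19 (KRT19). Midpoints of the bounds in place of FPKM, a choice made after seeing the data, gave an r of 0.89. The 3 genes that passed limma among all tested became 1 with no filter, with a mean of at least 5 FPKM, with those midpoints and with the replicate number as a block, and 0 to 8 with a library left out (8 without control 3, 0 without any 1 inhibited embryo). The cause was not tested. Whether the replicate numbers pair the embryos is not stated in the labels and was not settled here. Deviations of same-numbered libraries correlated at 0.046, 0.103 and 0.191, and those of differently numbered ones at -0.212 to 0.102. Each control correlated best with the inhibited library of its own number, but MAT2A-inhibited 1 correlated best with control 2. With the replicate block the keratin differences stayed at 1.27, 0.83, 0.64 and 0.48, with adjusted p of 0.609, 0.819, 0.823 and 0.749.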
